A study of Homo sapiens with 30 samples.

Results

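The HOX cluster genes were taken as all probes of the array whose gene name was HOX, a letter from A to D and a number. They comprised 52 probes of 39 genes, out of 27759 named genes on the array, with 28 genes measured by 1 probe, 9 by 2 probes and 2 by 3 probes. By the probe positions in the file annotation (build hg18), the HOXA probes lay between bases 27100394 and 27204479 of chromosome 7, the HOXB probes between 43962915 and 44158957 of chromosome 17, the HOXC probes between 52626301 and 52734105 of chromosome 12 and the HOXD probes between 176667660 and 176763677 of chromosome 2. One probe named HOXA10 (A_24_P914411) lay instead on chromosome 12 at bases 52709820 to 52709879, within the HOXC cluster and next to the HOXC6 probe. It was therefore not used for HOXA10, a choice made after its annotation had been seen.

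The study asked how breast cancer cells respond to bone morphogenetic protein 7 (BMP7), a secreted ligand of the transforming growth factor beta family. The cells were 5 established breast cancer lines, each derived from the tumor cells of a single patient, namely HCC1954, MDA-MB-231, MDA-MB-361, T-47D and ZR-75-30. They received recombinant human BMP7 or vehicle, and were collected after 30 min and after 1, 3, 6, 12 and 24 h. Each of the 30 two-colour arrays compared the vehicle-treated cells (Cy3) with the BMP7-treated cells (Cy5) of 1 line at 1 time point, with the cells of 3 cultures pooled, so that no combination of line and time was repeated and no dyes were swapped. The lines had been chosen for their low own expression of BMP7. According to the methods, MDA-MB-231 and T-47D were grown in less serum than recommended, so that line and culture medium cannot be told apart for these lines.

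HOX genes encode homeodomain transcription factors that give cells their position along the body axis in the embryo. They lie in 4 clusters in which gene order follows the order of expression along the axis, from low-numbered genes toward the head to high-numbered genes toward the tail, and a set of them stays active in adult tissues, including the mammary gland. HOX proteins bind DNA together with cofactors of the PBX, MEIS and PKNOX families, and the clusters are held silent by Polycomb and open by Trithorax (MLL) complexes.

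The vehicle-treated cells were the base of the comparison between lines. A probe was called well above background in a line when the scanner software marked it so in the vehicle channel on at least 5 of the 6 arrays of that line. Levels are log2 Cy3 intensities after the arrays had been brought to a common distribution, and each gene was read from its brightest probe. In each line 57.7% to 62.5% of all probes were well above background. Of 8 luminal markers, all were well above background in MDA-MB-361 and T-47D, 7 (all but PGR) in HCC1954 and ZR-75-30, and 5 (GATA3, TFF1, KRT8, KRT18 and KRT19) in MDA-MB-231, where ESR1 was so on 0 of 6 arrays and FOXA1 on 3 of 6. The epithelial markers CDH1 and TACSTD1 and the mesenchymal marker VIM were well above background in all 5 lines, with VIM at 16.89 ± 0.21 (SD, n = 6) in MDA-MB-231, 14.32 ± 0.74 in HCC1954 and means of 4.93 to 7.78 in the other lines. Of 6 basal and mesenchymal markers, HCC1954 had all 6 well above background (VIM, CD44, KRT5, KRT14, KRT17 and CAV1) and ZR-75-30 had 5 (all but KRT5). MDA-MB-231 had 4 (VIM, CD44, KRT14 and CAV1), and MDA-MB-361 and T-47D had 3 (VIM, CD44 and KRT14). Of 8 markers of fibroblasts, blood and endothelial cells, 1 (CD14) was well above background in MDA-MB-231 and ZR-75-30, 2 in MDA-MB-361 and T-47D (CD14 and COL1A1) and 4 in HCC1954, where the endothelial genes PECAM1 (8.74 ± 0.58) and CDH5 (5.19 ± 0.88) were measured beside CD14 and COL1A1. The blood cell marker PTPRC and the fibroblast gene COL1A2 were well above background on 0 of 30 arrays.

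To show the regulatory sequence of genes that were well above background in a single line, the 250 bases upstream of the start site are given for HOXA2, HOXA4, HOXA9 and HOXD3 (RefSeq, build GRCh38.p14, which differs from the build of the probes, 5′ to 3′ on the strand of the gene). HOXC8 was the other gene of this kind. Capitals mark GGCGCC, a sequence bound by BMP-activated SMAD proteins, or TGATTNAT on either strand, the composite sequence of HOX and PBX proteins.
HOXA2, chr7:27102684-27102933, minus strand: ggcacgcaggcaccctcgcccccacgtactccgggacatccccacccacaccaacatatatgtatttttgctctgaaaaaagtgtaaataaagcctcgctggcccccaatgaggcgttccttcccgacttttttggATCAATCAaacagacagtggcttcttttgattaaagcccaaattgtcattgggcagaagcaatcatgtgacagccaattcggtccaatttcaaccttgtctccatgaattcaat
HOXA4, chr7:27130758-27131007, minus strand: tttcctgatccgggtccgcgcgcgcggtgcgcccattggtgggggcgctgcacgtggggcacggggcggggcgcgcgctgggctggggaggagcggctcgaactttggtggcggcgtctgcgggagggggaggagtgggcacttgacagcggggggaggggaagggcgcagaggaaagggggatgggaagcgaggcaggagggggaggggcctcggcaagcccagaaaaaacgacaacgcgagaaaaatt
HOXA9, chr7:27165538-27165787, minus strand: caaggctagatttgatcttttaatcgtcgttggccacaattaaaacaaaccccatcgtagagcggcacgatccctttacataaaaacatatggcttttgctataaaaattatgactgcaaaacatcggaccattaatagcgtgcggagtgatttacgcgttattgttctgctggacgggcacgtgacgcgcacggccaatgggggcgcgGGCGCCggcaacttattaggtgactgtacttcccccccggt
HOXD3, chr2:176157057-176157306, plus strand: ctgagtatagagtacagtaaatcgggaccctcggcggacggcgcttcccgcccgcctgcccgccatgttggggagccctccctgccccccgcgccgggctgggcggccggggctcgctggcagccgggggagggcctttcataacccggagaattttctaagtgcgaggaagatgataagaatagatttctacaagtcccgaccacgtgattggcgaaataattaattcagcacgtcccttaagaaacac
The HOXA9 window held 1 GGCGCC and the HOXA2 window 1 TGATTNAT, while the HOXA4 and HOXD3 windows held no match to these letters. Promoters of 20 of the 39 HOX genes were found in the RefSeq table, with HOXC4 and HOXC5 listed with the same window. On either strand, GGCGCC occurred in 5 of these 20 (25%) and in 16.4% of all 35116 promoter windows of the same length, and TGATTNAT in 2 (10%) and in 2.48%. The window shared by HOXC4 and HOXC5 held a GGCGCC and was counted for both genes. The median number of CpG dinucleotides was 20.5 in the HOX windows and 11 in all windows, at a median GC content of 59% and 58%.

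In the vehicle-treated cells, 18 of the 39 HOX genes were well above background in ZR-75-30, 17 in MDA-MB-361, 15 in HCC1954, 14 in T-47D and 10 in MDA-MB-231. In all 5 lines, 6 genes were so (HOXA3, HOXB3, HOXB9, HOXB13, HOXC9 and HOXD9), 6 in 4 lines, 3 in 3 lines, 3 in 2 lines and 5 in a single line. These counts rest on the brightest probe of each gene. The dimmer probes of HOXA3, HOXB3 and HOXB13 were not well above background in all lines, as given below. For the other 16 genes, among them HOXA10, HOXA11, HOXB8, HOXC4, HOXC6, HOXD8 and HOXD10, the probe used was not well above background in any line. Another probe of HOXA10 (A_23_P253368) was so on 5 of 6 arrays of HCC1954 (4.56 ± 0.35) and on 0 of the other lines, and was called higher there with a bound of at least 1.05-fold (limma adjusted p = 1.41e-14). Fewer cells with a transcript and less transcript per cell cannot be told apart in such pooled RNA.

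The clusters differed in how many of their genes were measured. Of the 10 HOXB genes, 7 were well above background in MDA-MB-361, T-47D and ZR-75-30, 5 in HCC1954 and 4 in MDA-MB-231. Of the 9 HOXC genes, 4 or 5 were so in HCC1954, MDA-MB-361, T-47D and ZR-75-30 but 1 in MDA-MB-231. The 11 HOXA genes reached 5 in HCC1954 and ZR-75-30, 4 in MDA-MB-361 and 2 in MDA-MB-231 and T-47D. Of the 9 HOXD genes, MDA-MB-231 had 3 well above background, MDA-MB-361 had 2 and each of the others 1. MDA-MB-231 thus had the lowest count of HOXC genes and the highest of HOXD genes.

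**Figure D1:**
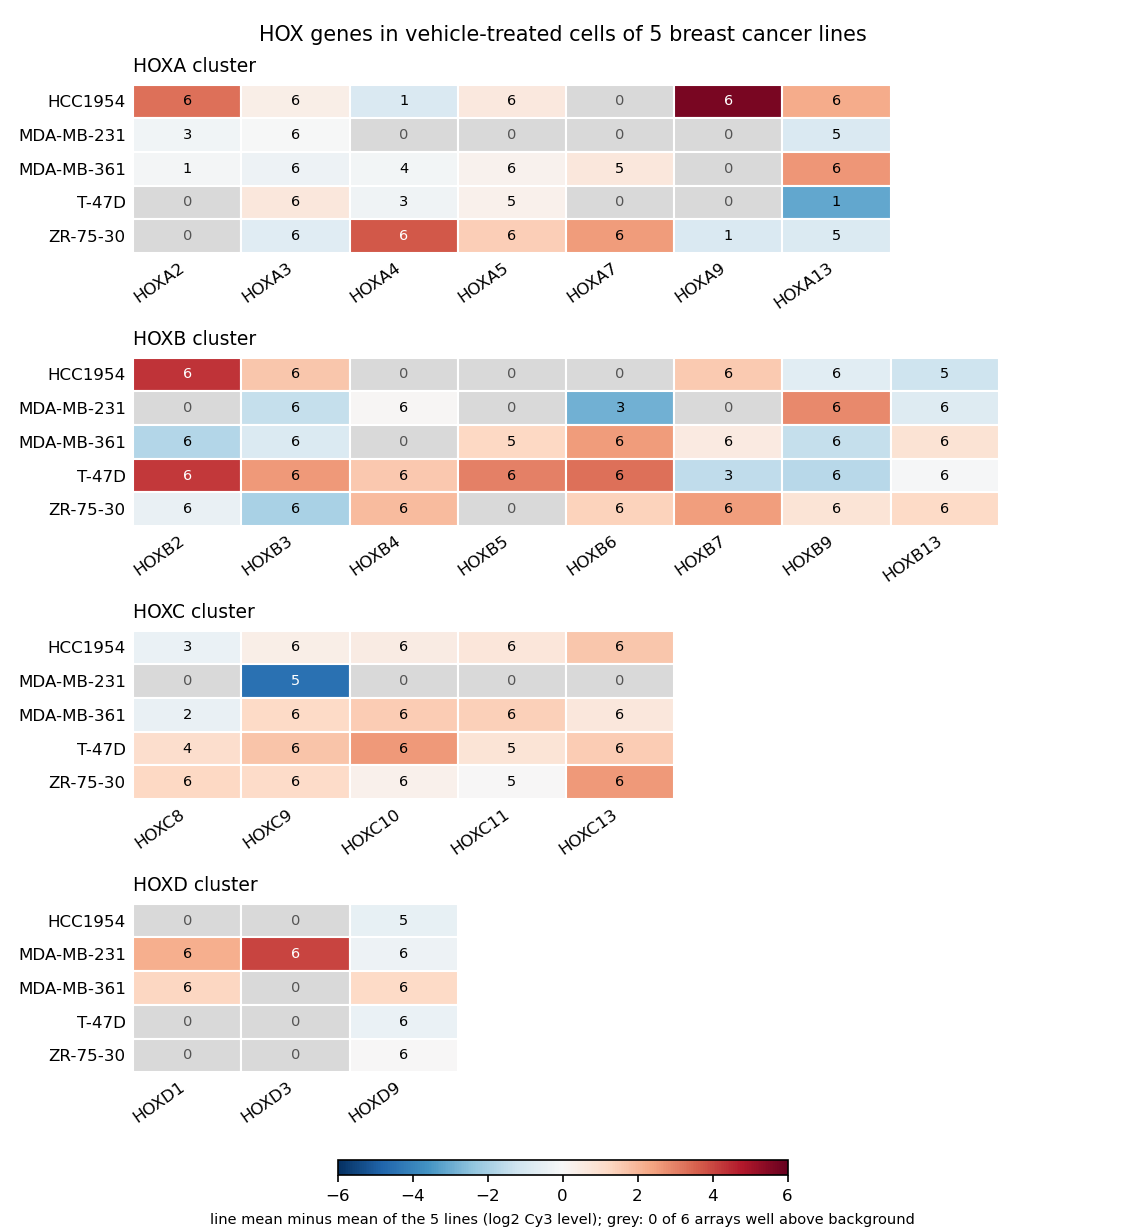
The 23 HOX genes well above background in at least 1 line (columns, in order along each of the 4 clusters) in vehicle-treated cells of 5 breast cancer lines (rows). The number in a cell counts the arrays, out of 6, on which the probe was well above background, the colour gives the mean level of the line minus the mean of the 5 lines (log2 Cy3 intensity), and grey marks 0 of 6 arrays. HOXA9 stands out in HCC1954 and HOXD3 in MDA-MB-231, and HOXC10, HOXC11 and HOXC13 are grey in MDA-MB-231 alone.

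Each line was then compared with the mean of the other 4 by limma over 40999 probes (Benjamini-Hochberg adjusted p under 0.05 and at least 2-fold). All fold and log2 differences of vehicle level are against that mean of log2 levels. They do not hold against each of the other lines. The 6 vehicle samples of a line, taken at different times, stood for its spread, so that the p-values measure the spread within these cell lines and not among tumors. A gene was counted as higher only if well above background in that line, and as lower only if well above background in another. With levels in either direction and regardless of background, HCC1954 had 17 of 39 HOX genes called (43.6%, against 20.5% of all probes) and MDA-MB-231 had 18 (46.2%, against 26.1%). MDA-MB-361 had 17 (43.6%, against 26.3%), T-47D 18 (46.2%, against 24.3%) and ZR-75-30 19 (48.7%, against 19.1%). The HOX genes were read from their brightest probes and the background from every probe, so the shares are not of the same kind of probe. With background correction by normexp (offset 50) and loess normalization together, the counts were 7, 10, 6, 9 and 7 in the same order. The share of all probes called under that processing was not computed. Whether the HOX share exceeds it there is therefore not known.

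With signal required, 7 HOX genes were higher and 7 lower in HCC1954 (background 9.29% higher and 10.1% lower of all probes). MDA-MB-231 had 3 higher and 15 lower (background 10.8% and 13.7%). MDA-MB-361 had 9 higher and 6 lower (13.2% and 11.7%), T-47D 9 and 8 (10.7% and 11.6%), and ZR-75-30 11 and 7 (8.92% and 8.67%). In all, 22 of the 39 genes were called with signal in at least 1 line. The share of all probes called in at least 1 line was not computed, here or for the lists below, and the shares by line do not stand for it. Where 1 line alone had a high level, that line also lowered the standing of the others, since it entered the mean they were compared with.

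In the HOXA cluster, HCC1954 and ZR-75-30 each had a gene of their own. HOXA9, known for its part in blood stem cells and leukemia, had levels between 9.48 and 9.98 in HCC1954 (median 9.82), all 6 arrays well above background. In the other 4 lines the 24 levels lay between 2.07 and 4.73, and 1 array, ZR-75-30 at 30 min, was well above background, so the groups did not overlap. HOXA9 was at least 50.3-fold higher in HCC1954 than the mean of the other lines (fitted log2 difference 7.11 ± 0.31 SE, limma adjusted p = 9.86e-18). In this bound ZR-75-30, with 1 array well above background, kept its measured mean of 3.19, so the bound is not strict. In HCC1954, PECAM1 and CDH5 were also well above background, as given above, and their part in this difference was not tested.

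HOXA2, which patterns the second pharyngeal arch, was also highest in HCC1954, with levels of 7.54 to 8.18 (median 7.63). In MDA-MB-231 it ranged from 2.41 to 7.29 over 5 arrays with a usable spot and was well above background on 3 arrays, the highest value being that of 12 h. All HCC1954 arrays exceeded all others, and the difference was at least 9.83-fold (4.13 ± 0.41, limma adjusted p = 1.21e-09). HOXA4, a gene of the neck and upper trunk, was instead the gene of ZR-75-30: its levels were 7.99 to 9.32 there (median 8.90) and at most 5.49 in any other line. This was at least 19.2-fold higher in ZR-75-30 (4.63 ± 0.17, limma adjusted p = 5.18e-19), with MDA-MB-361 and T-47D well above background on 4 and 3 arrays and MDA-MB-231 on 0.

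HOXA7 was likewise highest in ZR-75-30, where it was at 6.73 ± 0.52 (SD, n = 6) and at least 4.61-fold above the mean of the other lines (limma adjusted p = 8.59e-14). HOXA5, a gene of the trunk needed for lung development, was well above background in every line but MDA-MB-231. There it was so on 0 of 6 arrays and at least 2.62-fold lower than the mean of the others (limma adjusted p = 1.45e-15). HOXA13, a gene of the limb tips and urogenital tract, split the lines into groups. Its levels were 7.97 to 8.82 in HCC1954 (median 8.55) and 8.53 to 9.39 in MDA-MB-361 (median 8.92), 5.0 to 5.76 in MDA-MB-231 (median 5.30) and 4.37 to 5.93 in ZR-75-30 (median 5.51). In T-47D they lay between 2.13 and 6.49 (median 2.37), with 1 array (1 h) well above background. HCC1954 and MDA-MB-361 overlapped with each other but with none of the other lines, and were above the mean of their comparison lines by 2.76 and 3.33 on the log2 scale (limma adjusted p = 2.35e-07 and 5.73e-09). The other HOXA13 probe was not well above background on any array.

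In the HOXB cluster, HOXB2 and HOXB3 were highest in T-47D and HCC1954. HOXB2, a hindbrain patterning gene, had levels of 13.23 to 14.17 in HCC1954 (median 13.58) and 12.39 to 14.38 in T-47D (median 13.87), 8.32 to 9.66 in ZR-75-30 (median 8.73) and 7.26 to 7.91 in MDA-MB-361 (median 7.53). In MDA-MB-231 it was at 2.47 to 3.38 (median 2.96) with 0 of 6 arrays well above background. HCC1954 and T-47D overlapped, and both were apart from the rest. HOXB2 was at least 101-fold lower in MDA-MB-231 than the mean of the other lines (limma adjusted p = 2.33e-22). Against the mean of their own comparison lines, HCC1954 was at least 34.2-fold and T-47D 30.9-fold higher in HOXB2 (limma adjusted p = 5.04e-18 and 1.03e-17). Its dimmer probe was well above background in HCC1954 (8.11 ± 0.28) and T-47D (8.14 ± 0.40) and on 0 arrays of the other lines.

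HOXB3, the neighbor of HOXB2, was well above background on all 30 arrays. Its levels were 10.51 to 11.49 in T-47D (median 11.37) and 9.95 to 10.62 in HCC1954 (median 10.34), above 7.59 to 8.05 in MDA-MB-361 (median 7.66), 5.98 to 7.62 in MDA-MB-231 (median 7.40) and 5.99 to 7.43 in ZR-75-30 (median 6.62). T-47D was 9.67-fold higher and ZR-75-30 5.30-fold lower than the mean of the other lines (limma adjusted p = 7.32e-15 and 1.06e-11). The order of the lines thus resembled that of HOXB2 at the top, but MDA-MB-231, where HOXB2 was not well above background, had HOXB3 at a level overlapping ZR-75-30. Of its 2 dimmer probes, 1 was well above background in HCC1954 and T-47D and the other in no line.

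The middle genes of the cluster followed other orders. HOXB4, known for expanding blood stem cells, was at 6.83 ± 0.26 in ZR-75-30, 6.58 ± 0.18 in T-47D and 5.03 ± 0.41 in MDA-MB-231 and was well above background on 0 arrays of HCC1954 and MDA-MB-361. Its other probe was so on 4 arrays of MDA-MB-231, 1 of T-47D and 0 of ZR-75-30, and called no line. HOXB5 was well above background in T-47D (6.83 ± 0.44) and MDA-MB-361 (5.05 ± 0.21, 5 of 6 arrays) and on no array of the other lines. Its level in T-47D was at least 4.93-fold above the mean of the rest (limma adjusted p = 1.59e-15). Neither gene had HCC1954 among its lines, although HCC1954 had one of the highest HOXB2 levels.

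HOXB6, which acts in red blood cell and limb development, had levels of 9.18 to 10.59 in T-47D (median 10.31), 9.12 to 9.51 in MDA-MB-361 (median 9.25) and 7.38 to 8.37 in ZR-75-30 (median 8.23). In HCC1954 it was at 2.07 to 3.05 (median 2.22) with 0 of 6 arrays well above background, and in MDA-MB-231 at 2.90 to 4.81 (median 3.97, 5 arrays with a usable spot). The first 3 lines did not overlap with the other 2. HOXB6 was at least 12.0-fold lower in HCC1954 (limma adjusted p = 2.08e-18) and at least 12.8-fold higher in T-47D (1.19e-15). The other HOXB6 probe was well above background on 2 arrays of T-47D, 1 of ZR-75-30 and 0 of the other lines, and passed the test in T-47D (log2 difference 1.39, limma adjusted p = 5.23e-06) but not in HCC1954 (-0.72, less than 2-fold).

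HOXB7, linked to breast tumor growth and vessel formation, was highest in ZR-75-30 at 7.79 to 8.78 (median 8.41), followed by HCC1954 at 7.05 to 7.73 (median 7.35) and MDA-MB-361 at 6.19 to 6.60 (median 6.25). T-47D spread widely, from 2.39 to 6.44 (median 4.67) with 3 of 6 arrays well above background, and MDA-MB-231 reached at most 3.54 with 0 arrays. The levels of ZR-75-30 were all above those of HCC1954, and those of HCC1954 above those of the others. The fitted rise in ZR-75-30 was at least 6.67-fold (limma adjusted p = 6.98e-09). The dimmer probe of HOXB7 was highest in HCC1954 (5.79 ± 0.50) and did not call ZR-75-30 (log2 difference -0.11, limma adjusted p = 0.835). In MDA-MB-231 it was well above background on 4 arrays with a mean of 5.0 ± 1.54, so the probes disagreed for both lines.

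HOXB9, a thoracic gene that takes part in mammary gland development, was the HOXB gene that was highest in MDA-MB-231. Its levels were 11.20 to 12.35 there (median 11.48), 8.75 to 9.97 in ZR-75-30 (median 9.53), 6.63 to 8.44 in HCC1954 (median 8.35), 7.03 to 7.56 in MDA-MB-361 (median 7.22) and 6.53 to 7.65 in T-47D (median 7.07). MDA-MB-231 lay above all others and ZR-75-30 above the remaining 3, which overlapped. The difference of MDA-MB-231 was 12.3-fold upward (3.62 ± 0.21 SE, limma adjusted p = 4.66e-15).

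HOXB13, a factor of the prostate lineage, was read differently by its 2 probes. The probe used was well above background in all lines, from 5.67 ± 0.84 in HCC1954 to 8.11 ± 0.19 in ZR-75-30, whereas the other was so in MDA-MB-361 (9.57 ± 0.36) and ZR-75-30 (9.22 ± 0.29) alone, apart from T-47D at 24 h (5.45). With both probes, the highest line means were those of ZR-75-30 and MDA-MB-361, and T-47D at 24 h was the highest T-47D array for both (8.85 with the probe used).

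In the HOXC cluster, HOXC9, HOXC10, HOXC11 and HOXC13 were lowest in MDA-MB-231 and well above background in the other 4 lines. HOXC12, which lies among them, was well above background on at most 2 arrays of any line. HOXC9, a thoracic gene, had levels of 11.29 to 12.26 in T-47D (median 11.86), 11.16 to 11.50 in MDA-MB-361 (median 11.39), 10.78 to 11.69 in ZR-75-30 (median 11.29) and 9.78 to 10.83 in HCC1954 (median 10.71). In MDA-MB-231 the levels were 5.05 to 6.16 (median 5.71), all below the others. The fitted difference of MDA-MB-231 was -5.58 ± 0.16 on the log2 scale (limma adjusted p = 2.12e-22).

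HOXC10, a gene of the lumbar region, was at 9.58 to 10.90 in T-47D (median 10.04), 8.81 to 9.31 in MDA-MB-361 (median 9.06), 7.58 to 8.81 in HCC1954 (median 8.02) and 7.39 to 8.36 in ZR-75-30 (median 7.84). In MDA-MB-231 it did not exceed 2.74, and 0 of 6 arrays were well above background with either of its probes. HOXC10 was at least 22.8-fold lower in MDA-MB-231 (limma adjusted p = 3.63e-24) and at least 7.20-fold higher in T-47D (3.35e-17).

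HOXC13, which drives hair keratins in the hair follicle, was at 11.30 to 11.98 in ZR-75-30 (median 11.77), 10.42 to 11.14 in HCC1954 (median 10.77), 10.28 to 11.06 in T-47D (median 10.62) and 9.51 to 10.07 in MDA-MB-361 (median 9.75). In MDA-MB-231 it was at 1.98 to 3.77 (median 2.26), again with 0 arrays well above background. MDA-MB-231 was at least 86.9-fold lower than the mean of the other lines (limma adjusted p = 4.90e-25). ZR-75-30, whose arrays were all above those of the other lines, was at least 7.06-fold higher than their mean (limma adjusted p = 6.65e-15). HOXC11 was at least 3.68-fold lower in MDA-MB-231 (limma adjusted p = 9.19e-19), and was highest in MDA-MB-361 at 6.83 ± 0.22. HOXC8 was well above background on all arrays of ZR-75-30 (6.08 ± 0.18) and on 4 of T-47D (5.89 ± 1.13), and on 0 of MDA-MB-231, while its other probe was so on 3 arrays of T-47D alone. The genes HOXC4, HOXC5 and HOXC6 were well above background on at most 2 arrays of any line.

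In the HOXD cluster, by contrast, MDA-MB-231 had the highest means of HOXD1 and HOXD3, though not of HOXD9. HOXD3, a gene of the neck vertebrae, had levels of 7.16 to 8.24 in MDA-MB-231 (median 7.70), with 6 of 6 arrays well above background, and of 2.18 to 3.28 over the 24 arrays of the other lines, none of which was well above background. HOXD3 was at least 9.17-fold higher in MDA-MB-231 (5.09 ± 0.13 SE, limma adjusted p = 8.31e-24). HOXD1, the first gene of the cluster, was at 6.63 to 7.36 in MDA-MB-231 (median 7.12) and 5.37 to 6.83 in MDA-MB-361 (median 6.20), which overlapped, and at most 4.45 elsewhere with 0 arrays well above background. The rise of HOXD1 was at least 4.38-fold in MDA-MB-231 (3.73e-14) and 2.03-fold in MDA-MB-361 (3.21e-09). HOXD9 was well above background in all lines, with means from 5.15 ± 0.27 in HCC1954 to 6.85 ± 0.18 in MDA-MB-361. From HOXD10 to HOXD13, the genes at the end of the cluster, no more than 2 arrays of a line were well above background.

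**Figure D2:**
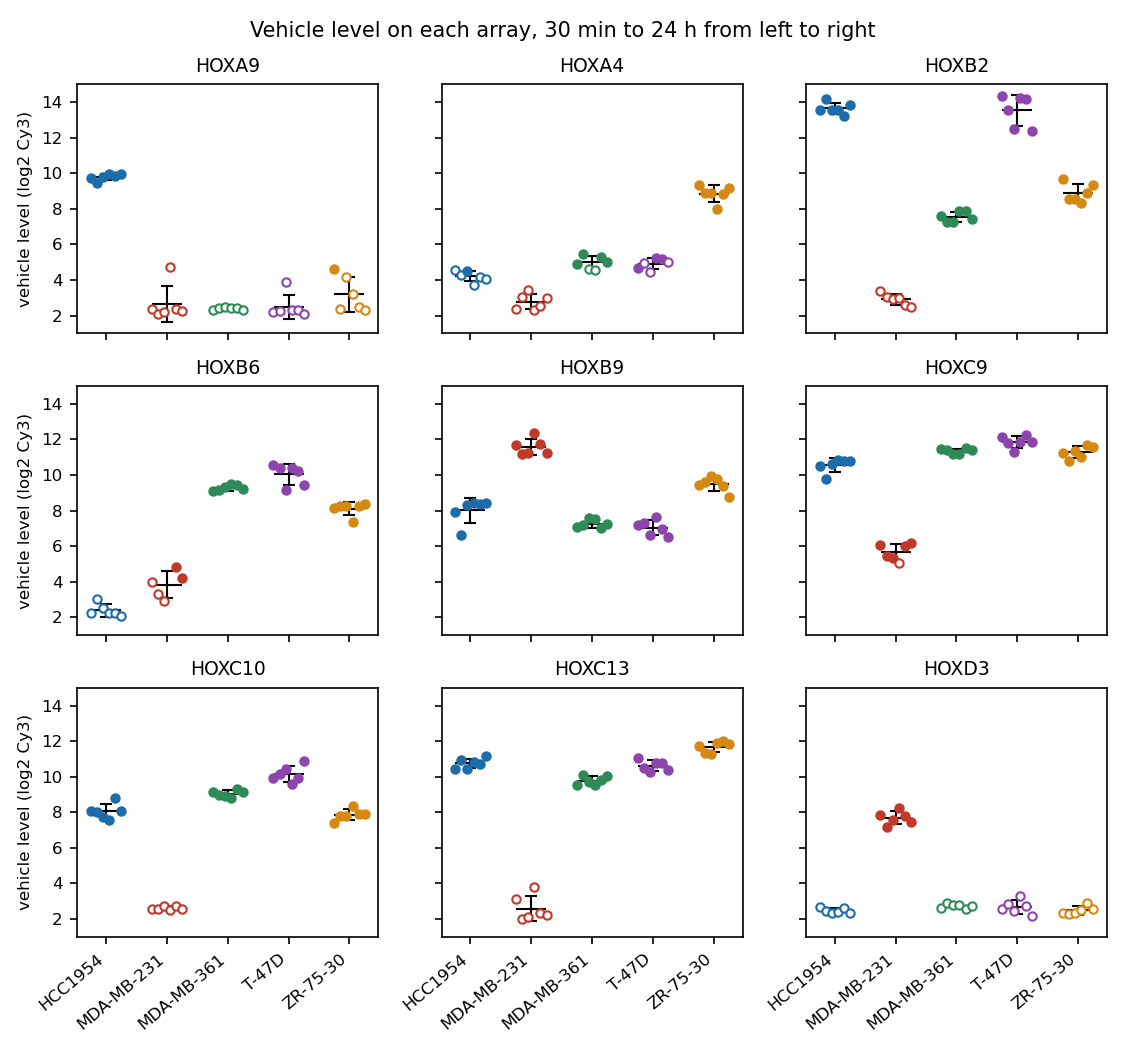
Vehicle levels (log2 Cy3 intensity, vertical axis) of 9 HOX genes on every array of the 5 lines (horizontal axis). Filled points were well above background, open points were not, and bars give the mean ± SD of the 6 arrays. The 6 HCC1954 arrays of HOXA9 lie between 9.48 and 9.98 and the 6 MDA-MB-231 arrays of HOXD3 between 7.16 and 8.24, above every array of the other lines, whereas HOXC9, HOXC10 and HOXC13 have their lowest points in MDA-MB-231.

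HOXA3 could not be described by 1 level. Its brighter probe (A_23_P111571) was at 15.44 to 16.87 on average in all 5 lines, and no line differed by 2-fold from the others with it. The other probe (A_23_P501538), at chr7:27113296-27113355, was well above background in HCC1954 (9.82 ± 0.30) and MDA-MB-361 (6.61 ± 0.21) and on 0 arrays of the other 3 lines. The 2 probes are annotated to the same transcript on the minus strand, with the brighter one at chr7:27116444-27116503. Results for HOXA3 are therefore given by probe.

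Among the cofactors of HOX proteins, all 9 genes of the list had a probe, all were well above background in some line and 5 in all lines. In at least 1 line, 8 of the 9 were called with signal, with 11 calls higher and 12 lower in 45 comparisons (24.4% and 26.7%, against 8.92% to 13.2% and 8.67% to 13.7% of all probes by line). MEIS1 was at least 9.12-fold lower in MDA-MB-231, where it was well above background on 0 of 6 arrays, than the mean of the other lines (limma adjusted p = 2.50e-20). MEIS3 was at least 5.06-fold lower in T-47D (limma adjusted p = 3.16e-14), while PKNOX2 was measured in MDA-MB-361 alone (at least 3.18-fold higher, 3.58e-10).

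Of 31 names of Polycomb and Trithorax genes and other chromatin regulators of the clusters, 27 had a probe and 24 were well above background in all 5 lines. In at least 1 line, 15 were called, with 11 calls higher and 14 lower in 135 comparisons. These shares (8.15% and 10.4%) were near those of all probes given above. The MLL2 probe fell by 2.52 on the log2 scale in MDA-MB-231 and JMJD3, a demethylase of the Polycomb mark, by 2.13, while PHC2, a Polycomb component, was higher there by 2.08 (limma adjusted p = 3.04e-08, 5.59e-09 and 2.42e-12). PHC1 was lower in T-47D by 2.16 (3.14e-08, limma).

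Of 8 upstream regulators, 4 were well above background in at least 1 line and called, with 5 calls higher and 6 lower in 40 comparisons (12.5% and 15%). CYP26B1, an enzyme that breaks down retinoic acid, was at 11.04 ± 0.31 in HCC1954, a log2 difference of 4.43 from the mean of the other lines (limma adjusted p = 1.48e-13). It was lower in T-47D by 3.36 (limma adjusted p = 6.50e-11). The retinoic acid receptors RARG and RARA were lower in MDA-MB-231 by 2.19 and 1.90, and CYP26A1 by 2.25 (limma adjusted p = 1.03e-12, 6.30e-09 and 3.67e-06). No probe of CDX1, CDX2, CDX4 or RARB was well above background in any line.

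The response to BMP7 was read as log2 ratios of BMP7-treated over vehicle-treated cells, on arrays where a probe was well above background in both channels. This left 572 values of 44 probes and 33 HOX genes. Their median was 0.01 and they ranged from -1.72 to 1.28. Of these values, 495 (86.5%) lay within 0.5 of 0, against 91.8% of the 764396 values of all probes, and the interquartile range was 0.41 for HOX probes and 0.32 for all. On the same arrays the direct BMP targets ID1 and ID2 had mean ratios of 0.81 and 0.92 over the lines (limma adjusted p = 0.0245 and 0.0114), while ID3, ID4, SMAD6 and SMAD7 did not pass this test. From the first hour to the later times 4 of these 6 genes rose, ID1, ID2, ID3 and SMAD6 (limma adjusted p = 0.0143, 4.53e-05, 0.00166 and 0.00145, against 8.56% of all probes called), and ID4 and SMAD7 did not pass (0.164 and 0.875).

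A 2-fold change was rare among HOX probes, as it was on the arrays as a whole. It was reached by 9 of the 572 values (1.57%), 4 rises and 5 falls in 8 probes of 7 genes, against 0.798% of all values. MDA-MB-361 had 3 of them (2.22% of its HOX values, against 0.196% of all its values) and MDA-MB-231 had 2 (2.94%, against 0.502%). T-47D had 2 (1.71%, against 1.13%), ZR-75-30 had 2 (1.63%, against 1.95%) and HCC1954 had 0 (against 0.271%). With 1 array per line and time point, none of them has a replicate. The count was 3 after normexp correction and loess, 17 after normexp correction and median scaling and 39 without the filter on dim spots. For these alternatives the share of all values was not computed.

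HOXB9 in MDA-MB-361 was the HOX probe with more than 1 such change. Its log2 ratios, in order of time from 30 min to 24 h, were -0.42, 0.72, 1.16, 1.28, 0.76 and 0.72. The ratio was below 0 at the first time point and above 0 at all later ones, whereas in the other 4 lines all 24 ratios of HOXB9 lay between -0.38 and 0.67. Within MDA-MB-361, the change from the first hour to 3 to 24 h was 0.83 ± 0.22 (SE), which did not pass limma's test over all probes (adjusted p = 0.912). A test of a difference between the 5 lines in this change did not pass either (limma adjusted p = 0.428). A difference between the lines in the mean ratio was not tested.

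The other 7 changes were single arrays of 6 genes. HOXB6 rose to 1.09 in T-47D at 3 h, where its other 5 ratios were -0.03 to 0.29, and HOXA13 to 1.18 in ZR-75-30 at 6 h (others 0.19 to 0.39). HOXB7 fell to -1.62 in ZR-75-30 at 6 h (others -0.63 to 0.21), HOXB13 to -1.66 in MDA-MB-231 at 24 h (others -0.11 to 0.34) and HOXB3 to -1.19 in MDA-MB-231 at 12 h (others -0.26 to 0.81). In each case the neighboring time points with a value did not reach 2-fold. The HOXA3 probes fell to -1.72 in T-47D at 1 h and, with the dimmer probe, to -1.02 in MDA-MB-361 at 12 h.

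Some of these changes lay on arrays that stood apart. The ZR-75-30 array of 6 h held 2 of the 9 changes, out of 23 HOX values (8.70%), and 8.52% of all values on that array were changed 2-fold. The 6 arrays of the second scan batch, to which it and the T-47D array of 3 h belonged, held 3 changes in 97 HOX values (3.09%, against 1.91% of all values on these arrays). On the first scan batch, 6 of the 9 changes remained, including both of HOXB9. The part of the scan batch in these values was not tested.

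**Figure D3:**
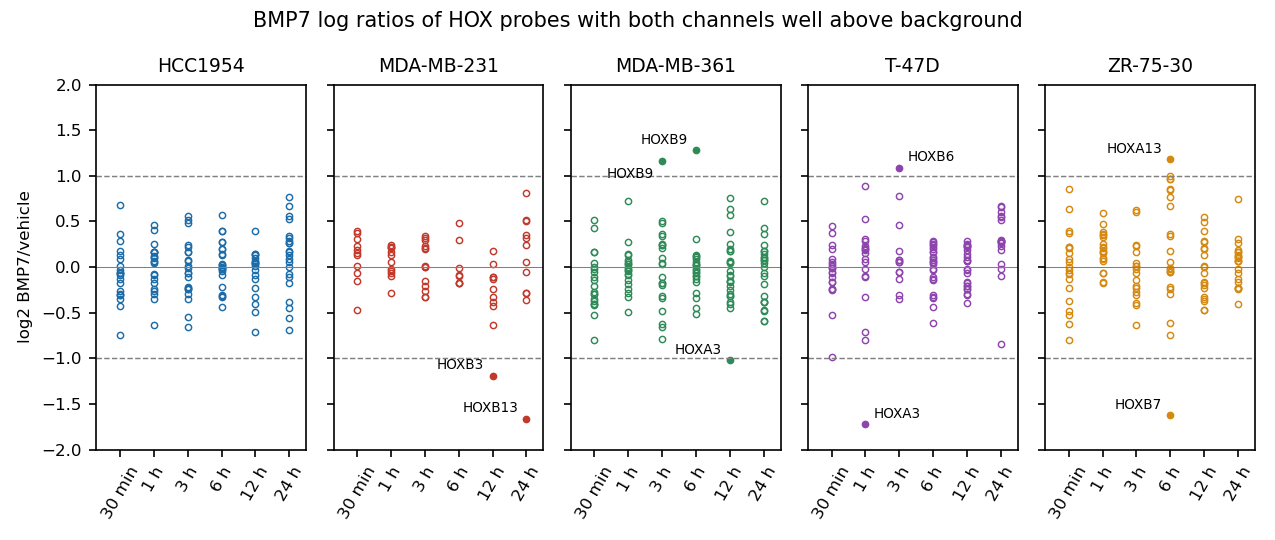
Log2 ratios of BMP7 over vehicle (vertical axis) of all HOX probes well above background in both channels, by line and time point (horizontal axis). Each point is 1 probe on 1 array, dashed lines mark 2-fold, and the 9 filled and named points are the 4 rises and 5 falls of at least 2-fold. Most points lie within 0.5 of 0, and HCC1954 has no point outside the lines.

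Over the cell lines, no HOX gene passed the test of a mean ratio other than 0. Of 15 HOX genes (16 probes) with ratios in at least 3 lines, 0 passed limma's test (background 0.7% of 25700 probes), and 3 probes (18.8%) had an unadjusted p under 0.05, against 15.5% of all probes. HOXD9 came nearest, with 0.27 ± 0.07 (SE) and a ratio above 0 in 4 of 5 lines (limma adjusted p = 0.148), followed by HOXB6 with 0.28 ± 0.12 over 3 lines (0.306). Since no dyes were swapped, such a mean includes whatever difference a probe has between the dyes.

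A dye difference that is the same on every array cancels in the change from the first hour (30 min and 1 h) to 3 to 24 h, tested with cell line as a block. The units of this test were the single arrays and not the lines, so its SE and p-values do not measure how far the change holds over lines. Among 15 probes of 14 HOX genes, 2 probes were called, against a background of 8.56% of 25409 probes. An unadjusted p under 0.05 was found for 6 of the 15 probes (40%), against 26.5% of all probes. Only 1 of the 2 called probes, that of HOXA3, was the probe its gene was read from. The brighter HOXA3 probe rose by 0.53 ± 0.14 (SE), with a rise in 4 of 5 lines (limma adjusted p = 0.022). For HOXC10, the dimmer probe rose by 0.31 ± 0.09 in 4 of 4 lines (adjusted p = 0.0419, limma), whereas the probe used for this gene changed by 0.16 ± 0.07, also upward in 4 of 4 lines, and was not called (0.134).

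The change of the brighter HOXA3 probe was largest in T-47D and ZR-75-30. In T-47D its ratios, in order of time from 30 min to 24 h, were -0.99, -1.72, 0.06, -0.34, -0.21 and 0.28. In ZR-75-30 they were -0.80, -0.07, 0.60, 0.96, 0.55 and 0.31 at the same times. In both lines the 2 early ratios lay below all later ones. In HCC1954 all 6 ratios were below 0, from -0.75 to -0.33, in MDA-MB-361 all 6 were above 0, from 0.04 to 0.57, and in MDA-MB-231 they ran from -0.47 to 0.32. The dimmer probe had ratios in 2 lines, of -0.07 to 0.29 in HCC1954 and -1.02 to -0.24 in MDA-MB-361, so that the 2 probes had opposite signs in MDA-MB-361. With HOXA3 read from its dimmer probe, an alternative chosen after seeing the data, 0 HOX genes were called over the lines. The call was also lost without T-47D, without ZR-75-30 or in the first scan batch alone.

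Within single lines, HOXA3 was called in T-47D (1.31 ± 0.23, limma adjusted p = 0.0125, background 1.82% of probes) and in ZR-75-30 (1.04 ± 0.23, adjusted p = 0.00511, background 8.71%). In ZR-75-30, HOXB7 fell by 0.92 ± 0.24 on the log2 scale (limma adjusted p = 0.0266). Its ratios there were 0.06 and 0.21 in the first hour and -0.63, -1.62, -0.47 and -0.41 from 3 to 24 h. All 4 late ratios of HOXB7 were below both early ones. In HCC1954, MDA-MB-231 and MDA-MB-361, 0 HOX probes were called by limma, against a background of 0%, 0.0041% and 0.0121% of probes. An unadjusted p under 0.05 was found for 0, 0 and 3 HOX probes of 20, 9 and 20, and for 1.75%, 1.76% and 1.47% of all probes. In T-47D it was found for 6 of 16 HOX probes (37.5%, against 18.8% of all probes). In ZR-75-30 it was found for 4 of 19 (21.1%, against 25.7%). The HOXB7 call and the HOXA3 call in ZR-75-30 were lost in the first scan batch alone, where the changes were -0.71 and 0.55. That batch lacked the ZR-75-30 arrays of 30 min and 6 h, so the early group of this line was the array of 1 h alone. The part of the scan batch in these changes was not tested. The 2 early and the 4 late arrays compared within a line were taken at different times and replicate nothing.

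**Figure D4:**
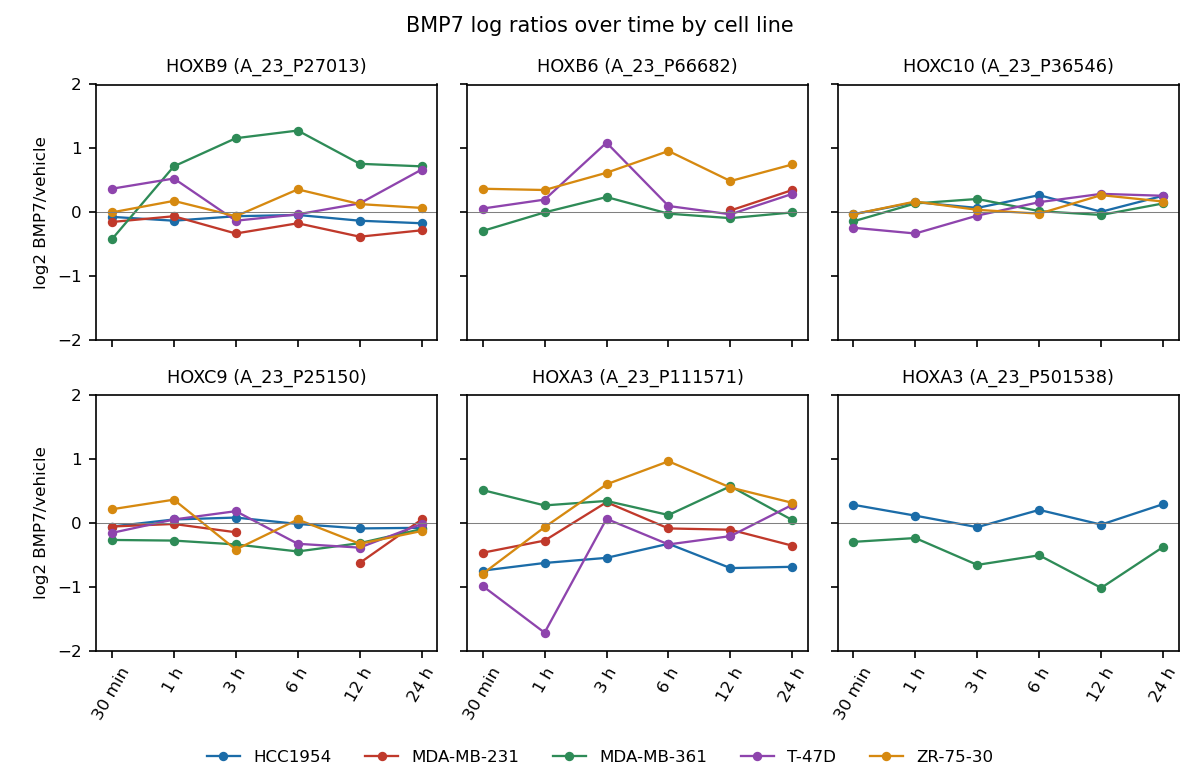
Log2 ratios of BMP7 over vehicle (vertical axis) against time after addition (horizontal axis) for HOXB9, HOXB6, HOXC10, HOXC9 and both HOXA3 probes, with a line for each cell line and points where both channels were well above background. HOXB9 rises above 1 in MDA-MB-361 at 3 and 6 h alone, the brighter HOXA3 probe starts below 0 in T-47D and ZR-75-30, and the ratios of HOXC9 stay between -0.63 and 0.36.

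The genes that were well above background in the vehicle channel of a single line, by the rule of at least 5 arrays, stayed within 2-fold of vehicle there. HOXA2, HOXA4 and HOXC8 also had ratios on some arrays of other lines. HOXA9 had ratios of 0.12 to 0.36 in HCC1954 and HOXA2 of 0.09 to 0.22, all 6 above 0 for each gene. HOXA4 had ratios of -0.23 to 0.34 and HOXC8 of -0.74 to 0.38 in ZR-75-30, and HOXD3 of -0.43 to 0.52 in MDA-MB-231. Of the genes that were low in MDA-MB-231, HOXC9 had 29 ratios between -0.63 and 0.36, HOXC10 had ratios of -0.33 to 0.29 with the probe used and HOXC13 of -0.61 to 0.56. Each of these ranges spanned 0 apart from those of HOXA9 and HOXA2.

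Among the lists around the HOX genes, 0 of 8 cofactors with enough values had a mean ratio other than 0, and 1 changed with time, MEIS2, which fell by 0.26 with a fall in 4 of 4 lines (limma adjusted p = 0.0252). Of 26 chromatin regulators, 2 (7.69%) were called for a change with time, a share near the 8.56% of all probes. Both rose in 5 of 5 lines: MLL3, a histone H3 methyltransferase, by 0.68 (limma adjusted p = 0.0197) and CBX6, a Polycomb component, by 0.33 (0.0462). None of 4 upstream regulators was called by either test.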

How the data were processed

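Vehicle-treated (Cy3) and BMP7-treated (Cy5) cells of 5 lines at 6 time points were compared on 30 arrays. Per the file headers, the log10 ratios and the processed intensities deposited by the authors were made by Feature Extraction 9.5.1.1 with background correction and dye normalization, and no deposited column of another sample was found (0 not used). The authors also deposited log2 ratios in a series matrix, used here as an alternative. Control and outlier spots were left out and spots of a probe averaged. Vehicle levels were log2 Cy3 intensities after A quantile normalization, and log2 ratios were centered on each array's median. Tests used limma 3.58.1 in R 4.3.3 with Benjamini-Hochberg adjustment over all probes and a threshold of 0.05, and were tested on simulated data. The deposited ratio p-values were not used.

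An array was counted as measuring a probe where it was well above background in both channels (53.8% to 68.3% of probes per array), and the number of arrays limits the precision. The 6 samples of a line are pooled cultures at different times, so p-values measure only the spread between these samples. "At least N-fold" sets the brighter group against the dimmest signal well above background (3.6 to 5.7 on the log2 scale by array) where a line had 0 such arrays. Lines with some such arrays kept their measured levels, dim spots included. A rise over such lines, as for HOXA2, HOXA4 and HOXA9, therefore has no strict lower bound.

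Each gene was read from the probe with the highest mean vehicle level. Values were given for up to 5 genes with the largest rise and 3 with the largest fall per line, for genes called with BMP7 and for those with the most 2-fold changes, and for up to 4 genes of each list of cofactors, chromatin and upstream regulators. The members, lists and tests were chosen with earlier results of these data known. Alternatives were other normalizations, filters and probes and leaving out lines, arrays or the second scan batch of 6 arrays. The HOXA3 probe alternative was added after seeing the data. Values of some genes are not reported here.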

Additional observations from a re-analysis of the deposited data

Results flagged for a closer look

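In 124 groups of 6 arrays of 1 HOX probe in 1 line, 12 held an array that stood far from the other 5, by the gap to the nearest array as a share of the range (Dixon's test at 95%). Chance alone gives about 1 in 20 groups. Among vehicle levels, the array of 6 h was low for HOXA4 in ZR-75-30 (7.99, nearest 8.85), HOXB6 in ZR-75-30 (7.38, nearest 8.15) and HOXB3 in MDA-MB-231 (5.98, nearest 7.12), and high for HOXA5 in MDA-MB-361 (6.31, nearest 5.29). The array of 1 h was low in HCC1954 for HOXB9 (6.63, nearest 7.94) and HOXC9 (9.78, nearest 10.51). HOXB3 was low in T-47D at 3 h (10.51, nearest 11.33) and HOXB13 in MDA-MB-361 at 12 h (7.47, nearest 7.74).

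Among the log2 ratios of BMP7 over vehicle, HOXB6 was high in T-47D at 3 h (1.09, nearest 0.29) and HOXC13 in HCC1954 at 24 h (0.56, nearest 0.18). HOXB9 was low in MDA-MB-361 at 30 min (-0.42, nearest 0.72) and HOXB13 in MDA-MB-231 at 24 h (-1.66, nearest -0.11). The arrays of ZR-75-30 and MDA-MB-231 at 6 h and of T-47D at 3 h belong to the second scan batch, whose part in these values was not tested.

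With the brighter HOXA3 probe, the ratio was above 0 on all 6 arrays of MDA-MB-361 (mean 0.31) and below 0 on all 6 of HCC1954 (mean -0.61), a difference of 0.92. The difference between this pair of lines was not tested by itself. The test among the 5 lines concerned the change from the first hour to 3 to 24 h and not the level of the ratio. It did not pass for this HOXA3 probe (limma adjusted p = 0.0999).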

How the results depend on the processing

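The 38 vehicle differences of named genes were recomputed under 646 alternatives in all. Of these, 626 kept their direction and stayed past the threshold, 20 kept their direction without passing, and 0 turned. The alternative without the 2-fold threshold could lose none of them, so its results were fixed in advance. Others left out only some of the arrays. Of the 20, 12 came from normexp correction with loess, so that 12 of the 38 differences did not pass under it. The other 8 came from taking all probes of a gene (passing where most of them passed), in which those of HOXA13, HOXB4, HOXB6 and HOXB7 disagreed. For HCC1954, MDA-MB-231, MDA-MB-361, T-47D and ZR-75-30, the counts of HOX genes called were 7, 10, 6, 9 and 7 after normexp correction with loess, against 17, 18, 17, 18 and 19. Leaving out all arrays of 1 time point in turn gave 16 to 18, 18 to 19, 15 to 18, 17 to 19 and 18 to 20, in the same order. For these alternatives the share of all probes called was not computed. The split of higher to lower calls, regardless of background, was 9 to 8 in HCC1954, 11 to 6 in MDA-MB-361 and 10 to 8 in T-47D, and after normexp correction with loess 6 to 1, 3 to 3 and 7 to 2. In MDA-MB-231 it was 3 to 15 and then 2 to 8. In T-47D it was 14 to 7 when arrays were scaled to the 75th percentile.

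The 9 changes of 2-fold on single arrays became 3 with normexp correction and loess, 17 with normexp correction and median scaling, 14 with the series matrix values, 39 without a filter on dim spots and 3 at 3-fold. The 1 gene called over the lines for a change with time became 0 with normexp correction and median scaling, without T-47D, without ZR-75-30, in the first scan batch alone, with 30 min alone as the early group and with the other HOXA3 probe. The 3 calls within lines became 0 with normexp correction and median scaling, 1 without ZR-75-30 or with the other HOXA3 probe, and 5 without MDA-MB-231, without the ZR-75-30 array of 6 h or with scan batch as a term. The mean over lines, with 0 genes called, gave 1 without MDA-MB-361 (HOXD9, 0.35). The change of the HOXC10 probe used turned to -0.03 with normexp correction and median scaling. In the cases above the cause was not tested unless the alternative itself leaves out samples or filters. The second scan batch could not be fitted alone, since it held no array of MDA-MB-361 and 1 each of HCC1954 and T-47D. Signal over background limits the 16 genes whose probe used was not well above background in any line.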
